A study of Homo sapiens with 18 samples.

Results

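The genes described here are MET, which encodes the receptor for hepatocyte growth factor (HGF), MST1R, which encodes RON, the receptor for macrophage-stimulating protein (MSP), the other receptor kinase genes EGFR, ERBB2, ERBB3, AXL, IGF1R, INSR and DDR1, and the docking protein gene GAB1. They were chosen by name, as the count rows whose Ensembl identifiers map to these symbols, and they make 10 of the 58395 genes in the table. Each symbol matched 1 identifier, and all 10 passed the filter on low counts. RNA was sequenced from BxPC-3, an established human pancreatic cancer cell line, in 6 groups of 3 libraries: vehicle (PBS), HGF at 80 ng/ml and MSP at 100 ng/ml, each collected at 1 h and at 4 h. All groups were grown in RPMI medium with serum, and all are the same single line, so no other genetic background is represented. Nothing in the labels says that the triplicates were separate cultures. The p-values therefore reflect library-to-library spread alone, and part or all of it may be technical.

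MET and RON are closely related receptor tyrosine kinases with a shared domain layout. On binding its ligand, each pairs with another copy of itself and phosphorylates its own tail, which then recruits adaptor proteins. GAB1 is a docking protein that binds active MET directly or through GRB2 and passes its signal on to SHP2, PI3 kinase and the RAS pathway. EGFR, ERBB2 and ERBB3 form one family, IGF1R and INSR form another, AXL responds to GAS6, and DDR1 is a receptor for collagen. The measurements are of RNA in whole cultures, so fewer cells with a transcript and less of it per cell cannot be told apart, and neither receptor protein nor its phosphorylation was measured.

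Total counts ranged from 30556613 to 48477215 per library, and 16794 genes were tested. Epithelial markers were present in every library, with KRT19 between 1750 and 2520 CPM (counts scaled to a common library size) of library totals. Markers of other cell types were low but not all at 0. COL1A2 had 0 counts in 12 of the 18 libraries, PDGFRB in 11 and CD68 in 14, and PTPRC reached at most 0.0982 CPM. COL1A1 was at 7.96 to 12.1 CPM, COL3A1 at 2.78 to 6.88, CD3E at 0.801 to 1.45 and VWF at 0.854 to 6.6. At 4 h, 6 fibroblast markers summed to between 15.9 and 18.5 CPM of library totals in the vehicle libraries and between 12.4 and 13.4 in the HGF libraries. The sums were 2.43 to 2.83 with vehicle and 1.44 to 2.16 with HGF for 5 leukocyte markers. They were 8.09 to 8.89 with vehicle and 2.64 to 2.91 with HGF for 4 endothelial markers. The 8 epithelial markers summed to 5830 to 6060 CPM with vehicle and 6220 to 6550 CPM with HGF at 4 h. That sum does not speak for each marker. MUC1 fell at 4 h of HGF (log2 fold change -0.73 on library totals), and SOX9 ranged from 7.32 to 47.6 CPM over all libraries. The part of these differences in the results was not tested. The trimmed mean of M-values (TMM), which rescales libraries so that most genes are level between them, gave the HGF libraries at 4 h factors of 0.8415 to 0.8601 and the vehicle and MSP libraries factors of 1.032 to 1.068. Scaling by library totals in place of TMM moved the median of all log2 fold changes after 4 h of HGF from -0.0585 to -0.349. Results for the 10 genes are therefore given under both scalings wherever the choice changes a call, and for the lists the counts are given under both.

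RefSeq holds promoter sequences for 8 of the 10 genes in the table used here. The 250 bases before the start site are shown for MET and MST1R, the receptors of the 2 ligands, and for IGF1R and INSR, sister receptors whose RNA fell after HGF. They are on RefSeq build GRCh38.p14 at chr7:116671946-116672195 (plus strand) for MET, chr3:49903874-49904123 (minus strand) for MST1R, chr15:98648289-98648538 (plus strand) for IGF1R and chr19:7294415-7294664 (minus strand) for INSR. Capitals mark GGGCGG, the core letters bound by SP and KLF factors, on either strand.
MET: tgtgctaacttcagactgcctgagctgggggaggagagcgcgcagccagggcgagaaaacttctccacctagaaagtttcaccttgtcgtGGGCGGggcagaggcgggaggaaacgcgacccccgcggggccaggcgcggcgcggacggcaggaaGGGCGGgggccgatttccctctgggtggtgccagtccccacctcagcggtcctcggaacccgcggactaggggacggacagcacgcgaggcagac
MST1R: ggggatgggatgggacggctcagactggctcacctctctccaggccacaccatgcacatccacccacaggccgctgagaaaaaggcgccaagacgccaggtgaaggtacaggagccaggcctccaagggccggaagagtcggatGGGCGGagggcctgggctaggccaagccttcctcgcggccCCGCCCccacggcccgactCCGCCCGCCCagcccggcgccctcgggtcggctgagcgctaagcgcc
IGF1R: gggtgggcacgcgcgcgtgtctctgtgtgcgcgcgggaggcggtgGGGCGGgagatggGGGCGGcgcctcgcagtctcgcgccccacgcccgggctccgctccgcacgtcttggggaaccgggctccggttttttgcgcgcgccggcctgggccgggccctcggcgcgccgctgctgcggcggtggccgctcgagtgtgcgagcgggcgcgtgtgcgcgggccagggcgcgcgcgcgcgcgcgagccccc
INSR: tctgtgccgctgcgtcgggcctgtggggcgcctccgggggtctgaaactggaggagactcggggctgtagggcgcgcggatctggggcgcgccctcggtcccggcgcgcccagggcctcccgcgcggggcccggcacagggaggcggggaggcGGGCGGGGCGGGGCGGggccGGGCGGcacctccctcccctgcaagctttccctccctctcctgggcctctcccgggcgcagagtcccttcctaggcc
These letters occurred 2 times in the MET window, 4 times in that of MST1R, 2 times in that of IGF1R and 4 times in that of INSR, where 3 of the matches overlap in 1 run; of the MST1R matches, 2 overlap. They occurred 2 times in the windows of EGFR, 2 times in those of AXL and 0 times in that of ERBB2. The DDR1 windows held 6 matches, with 1 site counted in 2 overlapping windows. Of 35116 RefSeq windows of the same length, 42.6% held these letters. That share and those below are per window, while EGFR, AXL and DDR1 have more than 1 window each. The windows were rich in G and C, at 68.4% for MET, 70.8% for MST1R, 81.2% for IGF1R and 78.4% for INSR, against a median of 58.0% over all windows. CCGGAA, the core of ETS factor sites, was found 1 time before MST1R and 1 time before AXL, 2 times before ERBB2, and in none of the windows of MET, EGFR, IGF1R, INSR or DDR1 (14.5% of all windows). TGANTCA, an AP-1 site, was found 2 times in the EGFR windows, 1 time in that of ERBB2 and 1 time in those of DDR1 (6.6% of all windows). Both EGFR matches lay in the same window, which had 38.8% G and C. CACGTG, the E-box, was in none of the 17 windows of these genes. The genes that rose and those that fell after HGF thus both included members with GGGCGG in the window, and a match of letters is a description only.

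In vehicle cultures MET had the highest level of the 10 genes per length of annotated exon, and INSR had the lowest. At 1 h of vehicle the levels in CPM per kb of exon (TMM scaling, mean ± SD, n = 3) were 116 ± 3.16 for MET, 85.9 ± 2.07 for EGFR, 56.3 ± 2.49 for DDR1, 36.6 ± 0.766 for AXL and 16.8 ± 0.323 for IGF1R. ERBB3 at 12.5 ± 0.306 and ERBB2 at 12.2 ± 0.216 CPM per kb had overlapping libraries and could not be ordered. MST1R followed at 11.3 ± 0.49 CPM per kb, with all its libraries below those of ERBB2 and ERBB3 at 1 h but overlapping both at 4 h, where it stood at 12.3 ± 0.895. GAB1 was at 1.98 ± 0.0902 and INSR at 0.33 ± 0.0403 CPM per kb. The RNA of the HGF receptor was thus far more abundant per length than that of the MSP receptor before any ligand was added. The order at the top and in the middle depends on the length used. Levels in vehicle at 1 h were also divided by the longest annotated transcript in place of all exons (SD, n = 3). DDR1 was then at 124 ± 5.47 and MET at 123 ± 3.35 CPM per kb, which cannot be ordered, and EGFR was at 109. ERBB2 at 25.6 ± 0.453 stood above IGF1R at 19.2 ± 0.368 and ERBB3 at 19.1 ± 0.467. MST1R was at 12.7 ± 0.549.

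Levels in vehicle changed little between the times. None of the 10 genes passed the threshold between vehicle at 4 h and at 1 h (edgeR quasi-likelihood test, Benjamini-Hochberg adjusted p under 0.05 over all 16794 genes), whereas 20.9% of all genes did. By edgeR and by DESeq2 1 of the 10 genes had an unadjusted p under 0.05, and DESeq2 called 0 after adjustment.

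**Figure D1:**
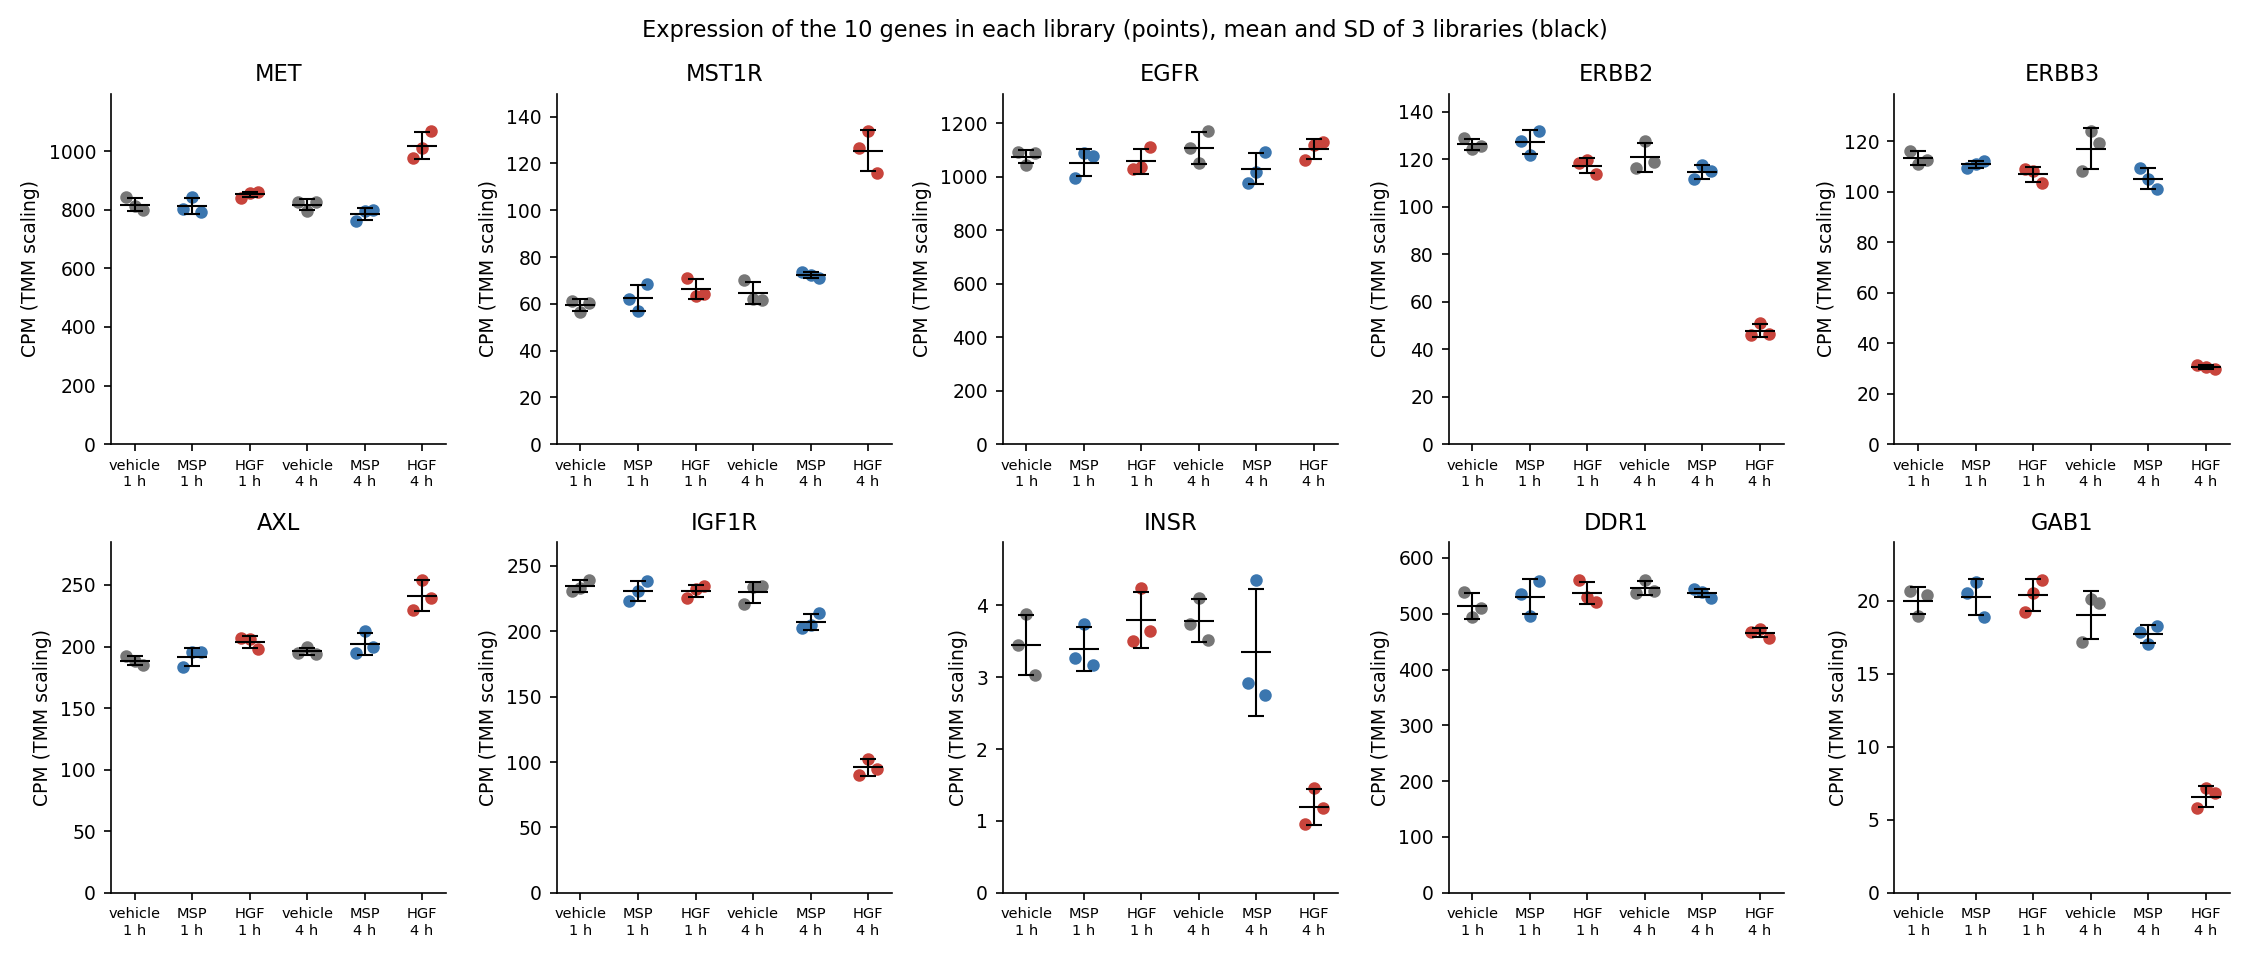
Expression of the 10 genes in all 18 libraries, in CPM with TMM scaling on axes that start at 0; points are libraries, black bars the mean ± SD of 3. The HGF libraries at 4 h stand below all others for ERBB2, ERBB3, IGF1R, INSR, DDR1 and GAB1, and above all others for MET, MST1R and AXL.

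After 4 h of HGF, RNA for 6 of the 10 genes fell and RNA for MST1R rose, under either scaling. ERBB3, the kinase-impaired partner of ERBB2, fell most, to 0.261 of its vehicle level with TMM scaling. MST1R rose 1.94-fold with TMM scaling. MET and AXL were called higher with TMM scaling, and neither was called when libraries were scaled by their totals, and EGFR was called lower with library totals but not with TMM. With TMM, 3 genes were called higher and 6 lower, where 33.1% of all genes tested were called higher and 34.8% lower. With library totals, 1 gene was called higher and 7 lower, against 21.2% and 52.0% of all genes. These shares are the background for the counts, so the values of each gene are given in turn.

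MST1R had 70.07, 62.02 and 61.83 CPM in the vehicle libraries at 4 h and 126.4, 133.8 and 116.1 CPM in the HGF libraries (TMM). Every HGF library thus exceeded every vehicle library. The log2 fold change was 0.96 (SE 0.06, edgeR adjusted p = 2.41e-13). With library totals it was 0.67 (adjusted p = 7.33e-10), so the rise remained when the scaling was changed. Long noncoding genes on the opposite strand cover 6.226% and 0.552% of the annotated MST1R exon bases, and no source used here states whether reads were counted by strand.

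MET had 827.5, 795 and 827.6 CPM in the vehicle libraries at 4 h and 976.2, 1011 and 1068 CPM in the HGF libraries (TMM). The groups did not overlap on this scale, and the log2 fold change was 0.32 (SE 0.04, edgeR adjusted p = 3.02e-08). On library totals the same libraries had 856.8, 825.6 and 859.3 CPM with vehicle and 839.3, 850.1 and 901.5 CPM with HGF, and they overlapped. The log2 fold change was then 0.03 (95% interval -0.05 to 0.10, edgeR adjusted p = 0.501). That interval spans 0, so the sign of the MET change is not settled with library totals. Its size and call depend on the scaling.

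AXL, whose product binds GAS6, was also called with TMM and not with library totals. It had 195, 199.4 and 193.6 CPM with vehicle and 229.7, 254.4 and 239.6 CPM with HGF at 4 h (TMM), a log2 fold change of 0.30 (SE 0.04, edgeR adjusted p = 4.84e-07). With library totals the log2 fold change was 0.01 (95% interval -0.07 to 0.09, edgeR adjusted p = 0.862).

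Of the 3 genes of the ERBB family, ERBB2 and ERBB3 fell under both scalings. ERBB3 had 108, 124 and 119.2 CPM with vehicle and 31.56, 30.53 and 29.69 CPM with HGF at 4 h (TMM), a log2 fold change of -1.94 (SE 0.05, edgeR adjusted p = 2.8e-24). ERBB2, which has no known ligand and signals in pairs with its relatives, had 116.2, 127.8 and 118.6 CPM with vehicle and 45.87, 50.89 and 46.53 CPM with HGF, a log2 fold change of -1.34 (SE 0.05, adjusted p = 7.34e-21). The groups did not overlap for either gene. EGFR had 1105, 1050 and 1170 CPM with vehicle and 1061, 1117 and 1129 CPM with HGF, which overlapped. Its log2 fold change was -0.01 (95% interval -0.10 to 0.09, edgeR adjusted p = 0.889) with TMM and -0.30 (adjusted p = 8.88e-07) with library totals. EGFR was also called lower with upper-quartile factors, another scaling, at -0.208 (edgeR adjusted p = 0.000209). MIEN1 and PGAP3 on the opposite strand share 5.532% and 1.88% of the ERBB2 exon bases, so some reads there cannot be told apart without strand.

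IGF1R and INSR, the receptors for insulin-like growth factors and insulin, both fell. IGF1R had 220.7, 233.9 and 234.9 CPM with vehicle and 90.03, 102.7 and 94.95 CPM with HGF at 4 h (TMM), a log2 fold change of -1.26 (SE 0.05, edgeR adjusted p = 6.51e-21). INSR had the lowest level of the 10 genes, with 3.738, 4.103 and 3.519 CPM with vehicle and 0.9516, 1.452 and 1.175 CPM with HGF. Its log2 fold change was -1.66 (SE 0.19, edgeR adjusted p = 6.24e-09). The HGF libraries held 25 to 39 reads of INSR, and its SE was the largest among the 10 genes. For both receptors the HGF libraries lay below all vehicle libraries.

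DDR1 moved least among the genes called lower with TMM scaling. It had 537.5, 561.3 and 541.6 CPM with vehicle and 467.9, 473.6 and 457.4 CPM with HGF at 4 h (TMM). The groups did not overlap, and the log2 fold change was -0.23 (SE 0.04, edgeR adjusted p = 2.78e-05), or -0.52 with library totals.

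GAB1, the docking protein of MET signalling, fell while MET did not. It had 17.15, 20.1 and 19.84 CPM with vehicle and 5.786, 7.147 and 6.852 CPM with HGF at 4 h (TMM), a log2 fold change of -1.53 (SE 0.09, edgeR adjusted p = 5.34e-16). All HGF libraries were below all vehicle libraries. With library totals the log2 fold change of GAB1 was -1.82 and that of ERBB3 was -2.23.

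**Figure D2:**
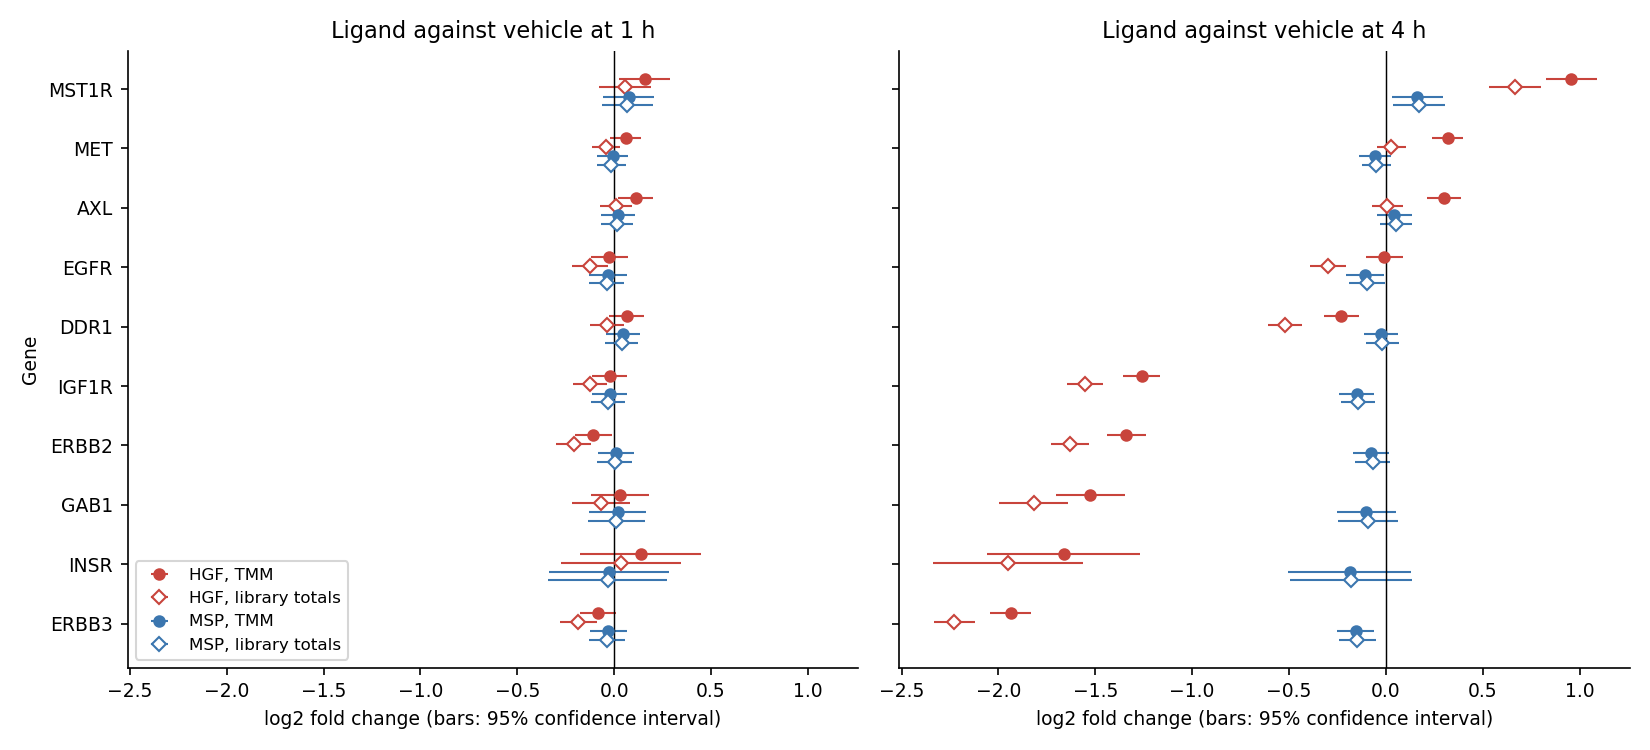
Log2 fold change of each gene against vehicle of the same time, at 1 h (left) and 4 h (right), with 95% confidence intervals; red is HGF, blue is MSP, filled circles are TMM and open diamonds library totals. At 4 h of HGF, ERBB3, INSR, GAB1, ERBB2 and IGF1R lie below -1 under both scalings, MST1R lies above 0 under both, and MET and AXL lie at 0 with library totals.

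Dividing each gene's counts by the MET counts of the same library gives a comparison that no scaling can change. The MST1R to MET ratio was 0.0791 ± 0.00507 in vehicle, 0.0921 ± 0.00395 in MSP and 0.124 ± 0.0129 in HGF at 4 h (SD, n = 3). The HGF libraries exceeded all vehicle libraries, with a difference of 0.64 on the log2 scale (exact two-sided permutation p = 0.1, the smallest that 3 against 3 allow). The AXL to MET ratio was 0.24 ± 0.00925 in vehicle and 0.237 ± 0.0138 in HGF at 4 h (exact permutation p = 0.9, n = 3), so the libraries overlapped. EGFR lost ground to MET, from 1.36 ± 0.0496 to 1.08 ± 0.0242. ERBB3 went from 0.144 ± 0.0127 to 0.0301 ± 0.00227 of MET counts. For 8 of the 9 ratios, all but that of AXL, the HGF and vehicle libraries at 4 h did not overlap. Adjusted over the 9 ratios, the exact permutation p was 0.1125 for each of those 8 (n = 3 against 3). All 9 ratios share the MET counts, so the 8 are not independent of each other. The share of all genes whose ratio to MET did not overlap was not computed, so this count has no direct background. With TMM, 33.1% of all genes were called higher and 34.8% lower at 4 h of HGF (edgeR).

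**Figure D3:**
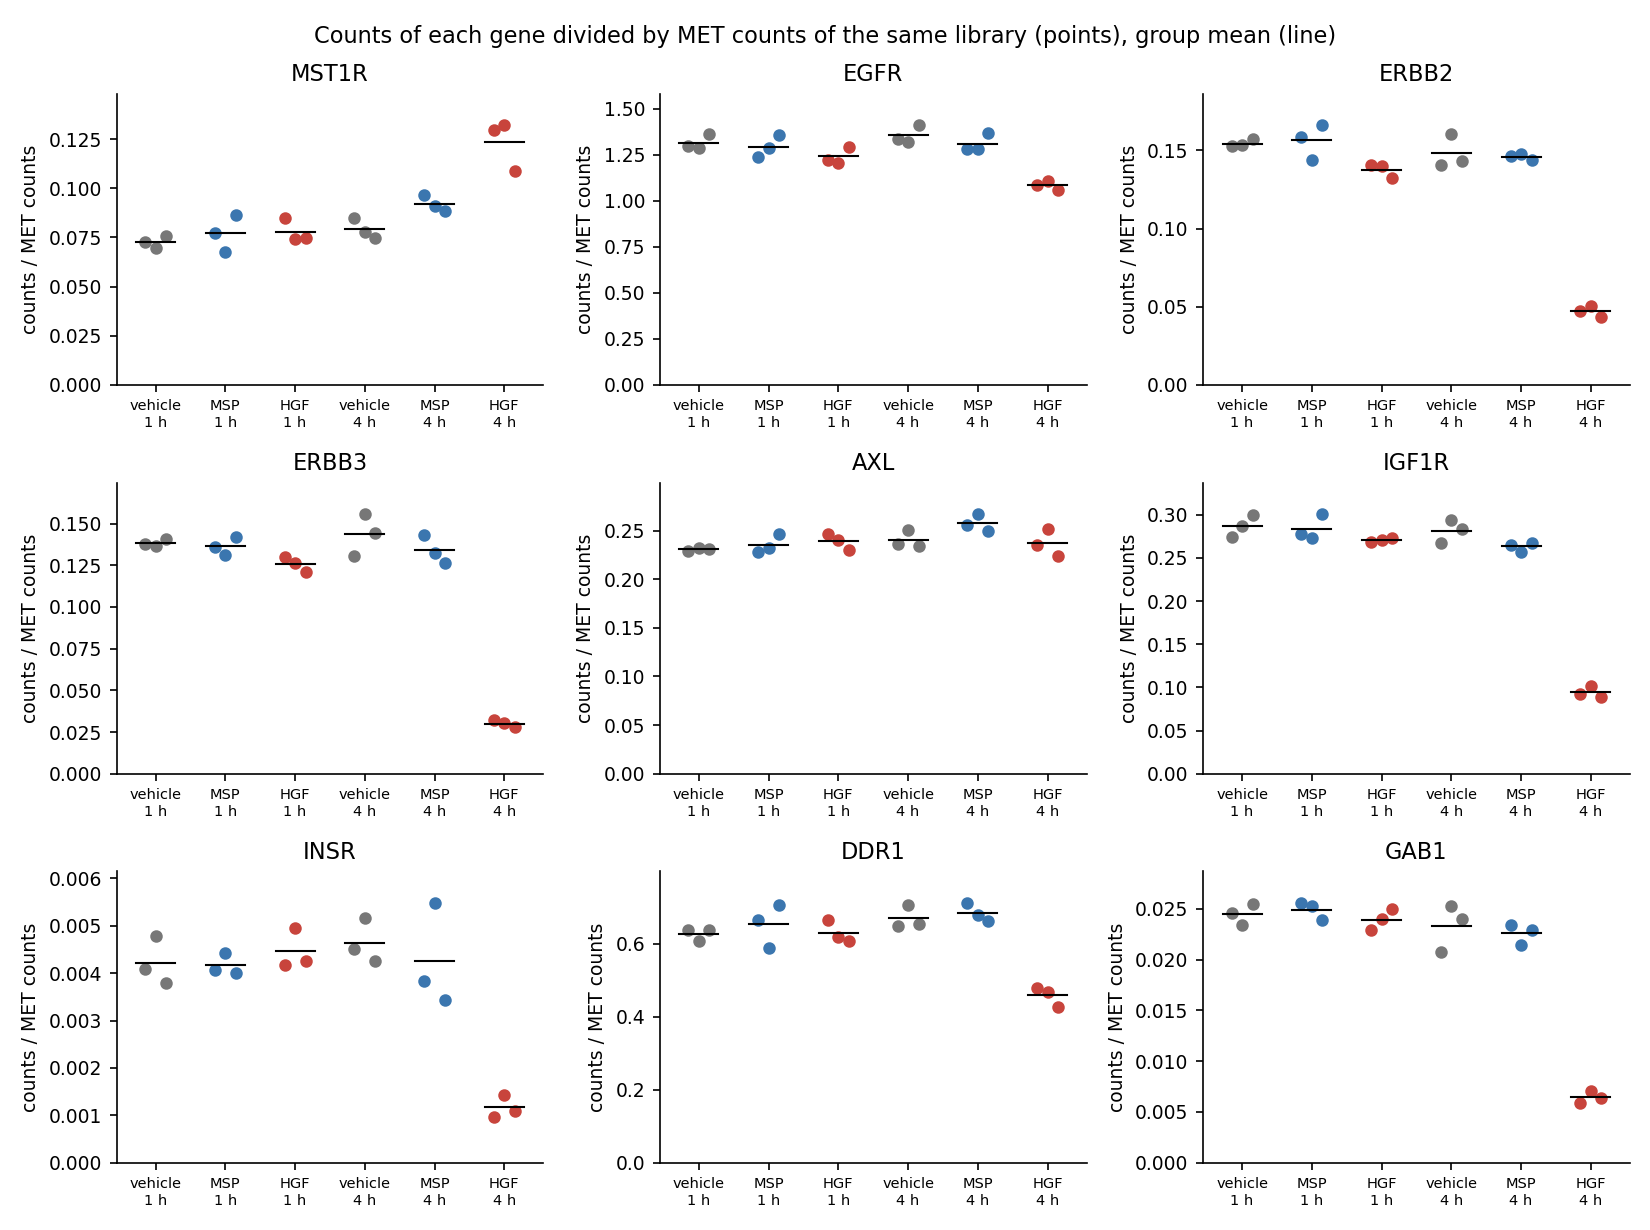
Counts of each gene divided by the MET counts of the same library, in the 6 groups; points are libraries and lines are group means, on axes that start at 0. At 4 h the HGF libraries are highest for MST1R, overlap vehicle for AXL and are lowest for the other genes.

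The order of levels per exon length shifted with HGF. MST1R stood in place 7 of 10 in vehicle at 4 h and in place 5 after 4 h of HGF, where it had 23.9 ± 1.7 CPM per kb (SD, n = 3) against 6.88 ± 0.46 for IGF1R, 4.63 ± 0.264 for ERBB2 and 3.38 ± 0.103 for ERBB3. By the longest transcript MST1R went from place 8 to place 5. MET remained first by exon length, at 145 ± 6.59 CPM per kb.

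**Figure D4:**
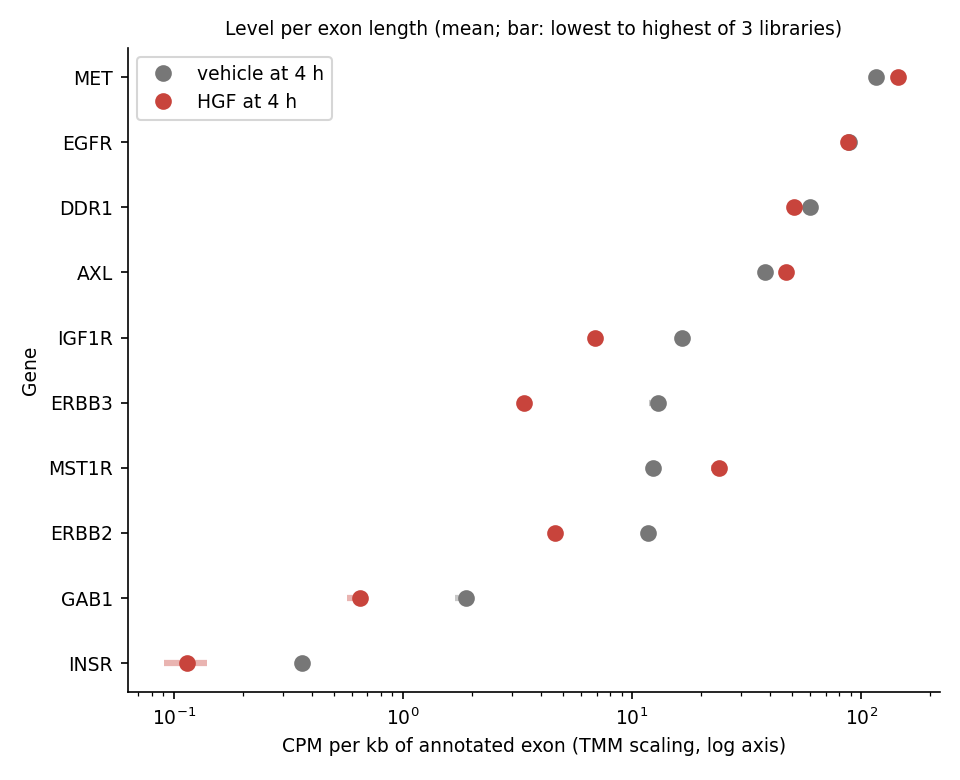
Level of each gene per kb of annotated exon in vehicle and HGF libraries at 4 h (mean of 3 with TMM scaling, bars from the lowest to the highest library, log axis). MST1R at 23.9 with HGF lies above IGF1R, ERBB3 and ERBB2, with which it was level or below in vehicle.

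At 1 h of HGF none of the 10 genes passed the threshold with TMM scaling (edgeR), where 21.0% of all genes did, 13.8% higher and 7.16% lower. By edgeR 3 of the 10 had an unadjusted p under 0.05, namely MST1R, ERBB2 and AXL, and DESeq2 called 0 after adjustment and 3 before it. Log2 fold changes ran from -0.11 for ERBB2 to 0.16 for MST1R (edgeR adjusted p = 0.103 and 0.0859). With library totals 4 of the 10 were called lower, where 21.4% of all genes were. These were ERBB2 at -0.21 (edgeR adjusted p = 0.000586), ERBB3 at -0.18 (0.003), EGFR at -0.125 (0.0348) and IGF1R at -0.12 (0.0272). The median of all genes at this time was -0.00414 with TMM and -0.106 with library totals.

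The effect of HGF at 4 h was tested against its effect at 1 h as an interaction with time. With TMM 3 of the 10 genes had a higher and 6 a lower effect at 4 h, against 26.8% and 26.4% of all genes. With library totals these numbers were 1 and 7, against 18.6% and 37.9%. The largest differences in the effect were -1.86 for ERBB3, -1.80 for INSR and -1.56 for GAB1 on the log2 scale (TMM, edgeR adjusted p = 1.19e-19, 2.93e-07 and 7.12e-13). MST1R differed by 0.80 (edgeR adjusted p = 1.99e-08) with TMM and by 0.61 with library totals.

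MSP, the ligand of RON, left all 10 genes short of the threshold at both times under either scaling. At 1 h 0 of the 10 were called by edgeR or DESeq2, and 0 had an unadjusted p under 0.05 by either, where 0.834% of all genes were called. MSP at 1 h gave a log2 fold change of -0.01 for MET (95% interval -0.09 to 0.07) and 0.075 for MST1R (95% interval -0.056 to 0.205). At 4 h 0 of the 10 were called by edgeR, where 1.07% of all genes were, 4 had an unadjusted p under 0.05, and DESeq2 called 1, IGF1R.

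The 4 genes with an unadjusted p under 0.05 at 4 h of MSP were IGF1R, ERBB3, MST1R and EGFR. IGF1R had 202.5, 204.5 and 213.8 CPM with MSP, all below the vehicle libraries, and a log2 fold change of -0.15 (SE 0.04, edgeR adjusted p = 0.0984). MST1R had 73.58, 72.46 and 70.85 CPM with MSP, all above the vehicle libraries, and a log2 fold change of 0.16 (SE 0.06, edgeR adjusted p = 0.267). ERBB3 was at -0.155 (edgeR adjusted p = 0.112) and EGFR at -0.11 (adjusted p = 0.345), both with overlapping libraries. Beside these stand the HGF values at 4 h from the same vehicle libraries, -1.26 for IGF1R, 0.96 for MST1R, -1.94 for ERBB3 and -0.01 for EGFR. None of the 10 genes had a different MSP effect at 4 h than at 1 h (edgeR, 0 of 10, with 0.322% of all genes called, 1 of 10 at an unadjusted p under 0.05 and 0 by DESeq2).

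Set directly against MSP at 4 h, HGF gave higher MET, MST1R and AXL and lower ERBB2, ERBB3, IGF1R, INSR, DDR1 and GAB1 with TMM. These 3 and 6 genes compare with 32.7% of all genes higher and 33.8% lower. The log2 difference was 0.79 for MST1R (SE 0.06, edgeR adjusted p = 1.1e-11), 0.38 for MET (SE 0.04, adjusted p = 1.25e-09) and -1.78 for ERBB3 (SE 0.05, adjusted p = 2.9e-23). With library totals MST1R alone was called higher and 7 were called lower, against 19.8% and 53.4% of all genes. EGFR changed sign between the scalings, from 0.10 (edgeR adjusted p = 0.0648) with TMM to -0.20 (adjusted p = 0.00026) with library totals. It was called higher by DESeq2 (0.128, adjusted p = 0.0215), which called all 10, and in edgeR with the replicate block (0.1, adjusted p = 0.0277). At 1 h 0 of the 10 differed between the ligands with TMM (edgeR; 17.7% of all genes were called), 2 had an unadjusted p under 0.05 and DESeq2 called 0. With library totals ERBB2 and ERBB3 were called lower with HGF at 1 h, where 18.5% of all genes were. The ligands were given at different mass concentrations, so these differences are between the treatments as applied.

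Other genes of the pathway were followed in 5 lists. At 4 h of HGF several ligand genes of the ERBB family rose, and NRG2 and NRG4 of the same family fell. Of 18 ligand genes, 11 were tested, and 6 rose and 4 fell (edgeR, TMM), where 33.1% of all genes rose and 34.8% fell, with a median log2 fold change of 0.69 against -0.0585 for all genes. With library totals 6 rose and 5 fell (median 0.40), where 21.2% of all genes rose and 52.0% fell. These shares are the background for each list at this time. TGFA, a ligand of EGFR, went from 48.5 ± 2.38 to 332 ± 17.4 CPM, AREG from 24 ± 2.53 to 169 ± 4.55 and EREG from 18.2 ± 0.612 to 125 ± 4.81 (SD, n = 3). NRG1, a ligand of ERBB3, went from 175 ± 3.14 to 379 ± 15.8 CPM, a log2 fold change of 1.11 (SE 0.05). NRG4, an ERBB4 ligand, went from 6.47 ± 1.04 to 1.61 ± 0.139 CPM, and NRG2 from 1.34 ± 0.267 to 0.589 ± 0.11; both were named after their values were seen. After 1 h of HGF 5 of the 11 rose and 0 fell (5 and 1 with library totals), with AREG at 2.43 and EREG at 2.98 on the log2 scale. HBEGF, named here after its values were seen, rose most, at 4.08 (edgeR adjusted p = 1.79e-19), from 32.7 ± 5.19 to 554 ± 20.9 CPM. Of all genes, 13.8% rose and 7.16% fell at 1 h of HGF with TMM, and 9.07% rose and 21.4% fell with library totals. Every list count at 1 h of HGF, here and below, has these shares as its background. At 1 h of MSP 3 of the 11 rose, against 0.78% of all genes, among them HBEGF at 1.09 (edgeR adjusted p = 1.44e-08) and AREG at 0.56 (adjusted p = 5.36e-07). At 4 h of MSP edgeR and DESeq2 called 0 of the 11, with 3 at an unadjusted p under 0.05 by each. The genes of the added ligands were themselves scarce: HGF had 1 read in all 18 libraries together, and MST1, which encodes MSP, had 550.

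The next list holds genes of receptor turnover and dephosphorylation, among them ubiquitin ligases, sorting proteins, phosphatases and direct inhibitors. It also holds the proteases ADAM10 and ADAM17 and the deubiquitinase USP8, so not all of its genes end receptor signalling. Of 25, all tested, 16 rose and 5 fell at 4 h of HGF (TMM, median 0.47), and 13 rose and 9 fell with library totals (median 0.18). ERRFI1, an inhibitor of ERBB kinases, went from 94.8 ± 3 to 504 ± 12.2 CPM (SD, n = 3), PTPN1, a phosphatase of several receptor kinases, from 223 ± 3.58 to 444 ± 7.9, and CBL, a ubiquitin ligase of MET and EGFR, from 62 ± 2.21 to 115 ± 1.87. LRIG3, a membrane protein, fell from 75.5 ± 1.92 to 23.4 ± 0.416 CPM. At 1 h, 8 of the 25 rose and 2 fell with HGF (6 and 6 with library totals), led by ERRFI1 at 2.81 and SOCS3, a feedback inhibitor of cytokine receptors, at 2.61 on the log2 scale. At 1 h of MSP the same 2 genes were called, ERRFI1 at 0.68 (edgeR adjusted p = 8.71e-12) and SOCS3 at 0.36 (adjusted p = 0.0017), and at 4 h of MSP 0 of the 25 were called by edgeR, 3 had an unadjusted p under 0.05 and DESeq2 called 1.

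Adaptors moved both ways. Of 19 adaptor and docking genes, 18 were tested, and 8 rose and 7 fell at 4 h of HGF (TMM, median 0.02). With library totals 6 rose and 9 fell. SHC1, an adaptor that links receptors to GRB2, went from 274 ± 6.44 to 515 ± 6.05 CPM (SD, n = 3), and PTPN11, which encodes SHP2, a partner of GAB1, from 168 ± 7.66 to 298 ± 7.1. IRS1, the docking protein of IGF1R and INSR, rose from 204 ± 1.56 to 355 ± 22.6 CPM, and CRK rose from 101 ± 2.9 to 170 ± 7.69. IRS2, the other docking protein of these receptors in the list, fell at 4 h from 42.9 ± 3.66 to 27.6 ± 1.2 CPM. Among the 18, 4 rose and 0 fell at 1 h of HGF (3 and 4 with library totals), among them IRS2 at 0.70 and SHC1 at 0.39. With MSP 0 of the 18 were called at either time by edgeR or DESeq2. By edgeR 2 had an unadjusted p under 0.05 at 1 h and 5 at 4 h.

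Receptor tyrosine kinases outside the 10 moved both ways. Of 31, only 14 passed the filter on low counts, and 5 rose and 6 fell at 4 h of HGF (TMM, median -0.16; 5 and 7 with library totals, median -0.45). FGFR2 went from 70.2 ± 2.39 to 34.2 ± 1.99 CPM and FGFR3 from 192 ± 14.8 to 104 ± 1.72 (SD, n = 3), both receptors for fibroblast growth factors. RYK, a receptor for WNT proteins, went from 113 ± 1.48 to 157 ± 6.47 CPM, and TYRO3, a relative of AXL, from 17.2 ± 1.64 to 28.1 ± 1.49. At 1 h of HGF 2 of the 14 rose, MERTK at 0.41 (edgeR adjusted p = 0.000961) and FGFR3 at 0.19 (adjusted p = 0.00378), the second not with library totals (adjusted p = 0.177). With MSP 0 were called at either time by edgeR or DESeq2, with 1 at an unadjusted p under 0.05 at each time by edgeR.

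Among 10 membrane partners of MET and RON, all tested, 4 rose and 4 fell at 4 h of HGF (TMM, median -0.02), or 2 and 6 with library totals. CD44, a coreceptor of MET in some cells, went from 894 ± 4.69 to 1450 ± 31.6 CPM and ITGA6, an integrin subunit, from 1430 ± 45.3 to 2140 ± 74.9 (SD, n = 3). PLXNB2, a semaphorin receptor, fell from 601 ± 3.1 to 450 ± 25.7 CPM and the mucin MUC1 from 64.7 ± 3.62 to 47.8 ± 2.5. MUC1 was the 1 gene of these called at 1 h of HGF, at -0.19 (edgeR adjusted p = 0.00451), and with library totals 4 were called lower. With MSP 0 of the 10 were called, or had an unadjusted p under 0.05, at either time by edgeR or DESeq2.

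**Figure D5:**
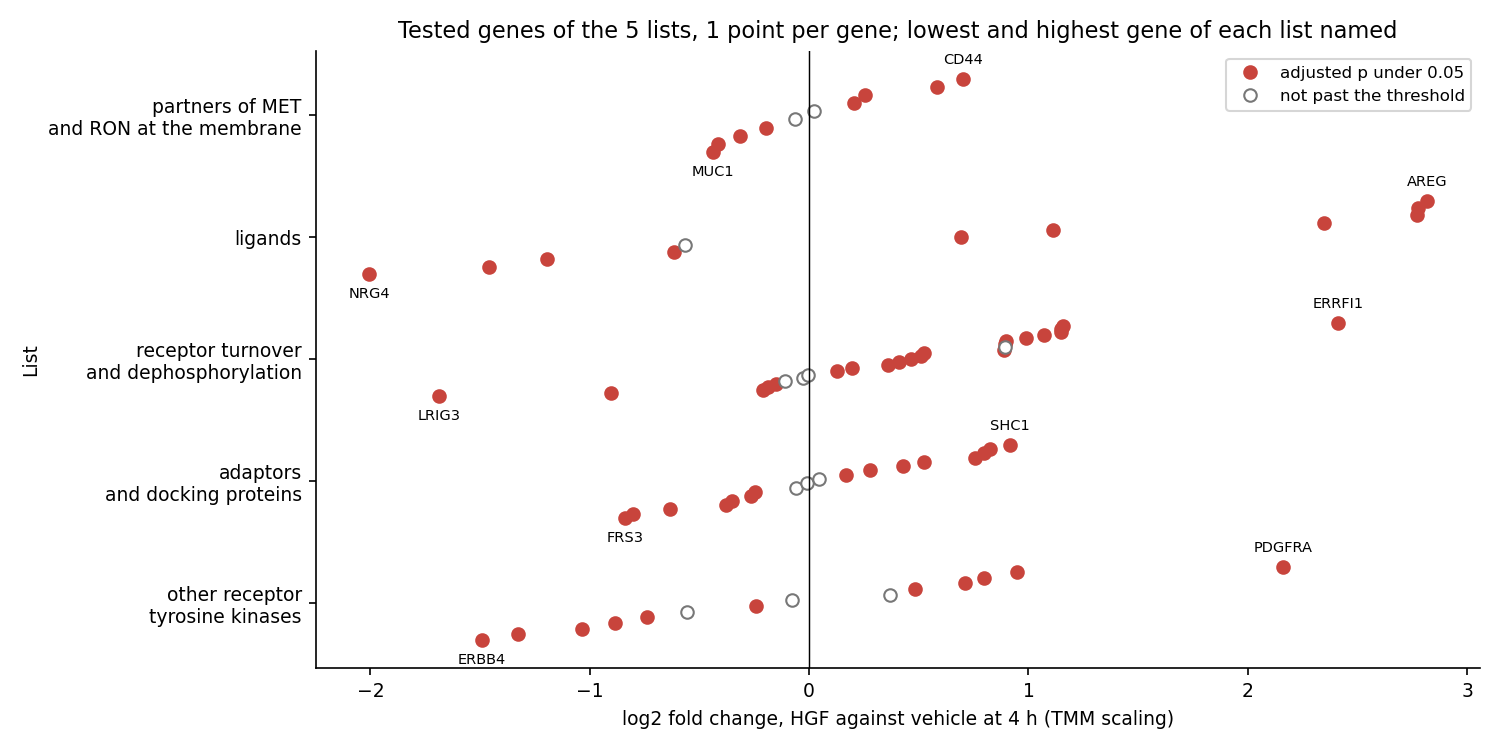
Log2 fold change after 4 h of HGF (TMM) of every tested gene of the 5 lists, 1 point per gene; red points have an edgeR adjusted p under 0.05. Ligands spread widest, with AREG highest at 2.82, and ERRFI1 at 2.41 leads the genes of receptor turnover.

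The genes whose log2 CPM was most alike to MET over the 18 libraries were ATP2A2, a calcium pump (Pearson r = 0.98), ACSL4 (0.98) and WAPL (0.98), out of 9042 genes at a mean of 10 CPM or more. Those most alike to MST1R were SLC52A2, a riboflavin transporter (r = 0.99), KIFC3 (0.99) and DNASE1L1 (0.99). These are descriptions over libraries that fall into separate groups, mainly the 3 HGF libraries at 4 h against the rest, and carry no test.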

How the data were processed

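Per the submitters' processing notes, alignment was by STAR and gene counting by featureCounts (Subread); per the labels, each sample was run in duplicate lanes. The authors deposited whole-number read counts per Ensembl gene in 1 column per library. No source used here gives the genome build, the annotation release or the strand setting. Gene names came from a name table (57754 of 58395 identifiers matched) and exon lengths from GENCODE 29 (58275 matched).

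Genes were kept by filterByExpr (minimum count 10, minimum total 15), which left 16794. TMM-scaled counts of all 18 libraries were fitted with 1 mean per group in edgeR 4.0.16 (robust quasi-likelihood, R 4.3.3, residual df 12, biological coefficient of variation 5.23%), and p-values were adjusted by Benjamini-Hochberg over all genes, with a threshold of 0.05. The SE is the absolute log2 fold change divided by the square root of F. The fit was tested on simulated data. Alternatives were library totals, DESeq2 1.42.0 and its size factors, upper-quartile factors, no filter, no robust estimation, only the groups compared, a replicate block and leaving out each library. A count of 0 allows up to 3 counts, 0.0619 to 0.0982 CPM by library, for counting error only.

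The genes, lists and tests were chosen with earlier results of these data known. From each list the text names up to 4 genes past the threshold with the smallest adjusted p at 4 h of HGF and up to 2 in each other comparison of a ligand with vehicle, at a mean of 1 CPM or more. HGF and MST1 were added outside that rule as the genes of the ligands. Also outside it are NRG2, NRG4 and IRS2 at 4 h of HGF and HBEGF at 1 h of HGF.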

Additional observations from a re-analysis of the deposited data

Results flagged for a closer look

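For 9 of the 10 genes the effect of HGF differed between 4 h and 1 h by the interaction term (edgeR with TMM, adjusted p under 0.05). Of all genes tested, 26.8% were called higher and 26.4% lower by the same term. The difference of the log2 fold changes was 0.259 for MET, 0.799 for MST1R and 0.188 for AXL. It was -1.233 for ERBB2, -1.855 for ERBB3, -1.238 for IGF1R, -1.8 for INSR, -0.294 for DDR1 and -1.558 for GAB1. With library totals MET and AXL lost the call and EGFR gained one. No group had the 4 or more libraries that a search for outlying values needs.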

How the results depend on the processing

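Of 1379 values of single genes recomputed under the alternatives, 1338 kept their call and its direction or stayed uncalled with either sign, 30 passed the threshold in addition, 6 lost it and 5 that were called in either fit changed sign. Those 5 were EGFR in HGF against MSP at 4 h (-0.2 with library totals, -0.11 with upper-quartile factors), AXL there (-0.044 with library totals), and EGFR (-0.173) and AXL (-0.002) in the interaction of HGF with time, with library totals. EGFR in HGF against MSP at 4 h was called higher with DESeq2 size factors (0.128), DESeq2 (0.128), no filter (0.117) and the replicate block (0.1). Counts of the 10 genes called at 1 h of HGF, 0 with TMM, were 4 with library totals, 4 with upper-quartile factors, 3 with only the groups compared and 1 with the replicate block. Over all genes, 5113 of 16794 were called with library totals, 5084 with upper-quartile factors and 3697 with the replicate block. With only the groups compared, 3844 of 15954 were called. At 4 h of MSP, 0 of the 10 became 1 with DESeq2, with only the groups compared and with the replicate block (IGF1R each time). The count ranged from 0 to 1 when single libraries were left out (ERBB3, without vehicle replicate 1). Over all genes, 310 of 16794 were called with DESeq2, 402 of 15731 with only the groups compared and 228 of 16794 with the replicate block. Without vehicle replicate 1, 220 of 17194 were called. For HGF against MSP at 1 h, 0 of the 10 became 2 with library totals, 2 with upper-quartile factors, 1 without a filter, and 0 to 1 when single libraries were left out (ERBB2, without MSP replicate 2). Over all genes, 4408 of 16794 were called with library totals and 4258 with upper-quartile factors. Without a filter 2956 of 31931 were called, and without MSP replicate 2 the count was 3103 of 17078. The replicate block moved no other count by over 1.5 times. The labels give no batch or pairing, so the libraries were not treated as paired. Same-numbered libraries had deviations that correlated between -0.065 and 0.12, over 0.1 in 1 of 45 pairs. Low correlations over all genes do not show that same-numbered libraries share nothing. The own number was the best match among the 3 libraries of the other group in 27 of the 45, a hint from the data and not the design. The log2 difference in the MST1R to MET ratio was 0.639 against vehicle and 0.419 against MSP at 4 h. Over all genes, the count called at 4 h of MSP was 179, but 310 with DESeq2, 354 without a filter, 402 with only the groups compared, and 32, 20, 16 and 83 without vehicle replicate 2, vehicle replicate 3, MSP replicate 2 and MSP replicate 3. The interaction of MSP with time gave 54, 102 with DESeq2 and 148 without a filter. MSP at 1 h gave 140, and 81 with only the groups compared. Vehicle over time gave 3513, and 2227 without vehicle replicate 1 at 4 h. The cause of these shifts was not tested. Depth limits INSR most, with 25 to 39 reads in the HGF libraries at 4 h.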
